A study of Mus musculus with 37 samples.

Results

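Liver RNA of mice that lack TMEM106B and also carry the TDP-43 Q331K change, labelled TMEM106B-/-TDP-43Q331K and called the combined genotype here, was compared with liver RNA of mice labelled TMEM106B-/- alone. The members are the 8 liver libraries with these labels, 4 per genotype, of 37 labelled libraries in the series, and every gene of the count table was considered. The comparison asks what the TDP-43 change does in livers without TMEM106B. All mice were 10 months old, both genotypes carry the TMEM106B loss, and the series title names the Q331K model a knock-in, a change placed in the gene's own locus. For comparison, the other liver libraries are 4 labelled TDP-43Q331K and 4 labelled WT, and the cortex of the same genotypes was sequenced as well. Nothing in the labels ties a library to its own mouse, and the p-values therefore cover the spread among these libraries, which may be technical.

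TDP-43, encoded by Tardbp, is a nuclear RNA-binding protein that controls splicing and RNA stability and is mutated in amyotrophic lateral sclerosis. TMEM106B is a membrane protein of late endosomes and lysosomes, known for its link to frontotemporal dementia. The mouse liver itself differs between the sexes: pulsed growth hormone in males acts through STAT5B to keep male-biased genes on and female-biased genes off, and a more continuous hormone pattern in females does the reverse. The liver also takes up fatty acids and stores them as triglyceride in lipid droplets, a programme in which PPAR-gamma takes part when fat accumulates.

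The 4 combined libraries held 58.2 to 65.1 M counts and the 4 TMEM106B-/- libraries 50.5 to 74.1 M. All 8 carried RNA of the Y-linked gene Ddx3y (46 to 62.2 counts per 1 M counts, CPM), and Xist reached at most 0.187 CPM. The knock-in does not remove RNA, and Tardbp stood at 116, 119.9, 100.4 and 101 CPM in the combined livers, against 110.4, 108, 106 and 102 CPM in TMEM106B-/- livers (log2 fold change 0.03 ± 0.11 SE, edgeR adjusted p = 0.934). Tmem106b RNA was present in every library, at 122, 139, 143 and 136 CPM in the combined livers, against 114, 129, 112 and 107 CPM in TMEM106B-/- livers (0.23 ± 0.15, edgeR adjusted p = 0.548). WT livers held 96.5 ± 16.3 CPM of it (SD, n = 4), so the RNA does not check the TMEM106B-/- label, and the genotypes rest on the labels. Transcripts of acute phase proteins set 2 livers apart. Their 26 tested genes summed to 44700 CPM in combined replicate 1 and 61700 CPM in TMEM106B-/- replicate 4, against 19400 to 24500 CPM in the other 6. On the first principal component, which held 20.2% of the variance among the 16 livers, the combined libraries lay between 31.9 and 52.4, and the TMEM106B-/- libraries between -14.9 (replicate 4) and 12.2. Hepatocyte markers dominated every library, with summed levels of 120000 to 147000 CPM in combined livers and 144000 to 160000 CPM in TMEM106B-/- livers.

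Of 16710 genes tested, 173 (1.04%) passed an adjusted p of 0.05, 81 (0.485%) higher and 92 (0.551%) lower in the combined livers. Those with the smallest p included cytochromes, urinary proteins and transporters whose level in mouse liver depends on sex, and genes of fatty acid uptake and triglyceride storage. Changes were often large, since 50 of the genes called higher and 58 of those called lower differed by at least 2-fold. In 169 of the 173 the 4 libraries of each genotype did not overlap, which follows largely from their selection on these same libraries. Over all tested genes such separation occurred in 4.51% upward and 4.48% downward. Over all genes the log2 fold change had a median of -0.0144, and 2256 genes were under an unadjusted p of 0.05. By annotation 138 of the 173 were protein-coding, 8 were long intergenic RNAs and 6 were antisense RNAs. Since the strand setting of the counting is not given in the sources used here, antisense RNAs cannot be told apart from their partner genes. The count was 536 with DESeq2, which kept 172 of the 173, and 376 with limma-voom. It was 81 when only the 8 compared libraries were fitted. Beside genes for which it is given below, that fit ended the calls of A1bg, Aph1b, Apoa1, Ccng1, Cela1, Ces2a, Cyp7b1, Ephx1, Exoc4, Fam131c, Gm33543, Gsta1, Mug1, Pdk4, Psmb5, S100a11, Selenbp2, Serpina1a, Slco1a1, Sort1 and Ugt2b38 (adjusted p from 0.0512 to 0.181). Leaving out combined replicate 2 or 3 gave 77 or 98 calls, and leaving out TMEM106B-/- replicate 1 or 2 gave 104 or 101.

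**Figure D1:**
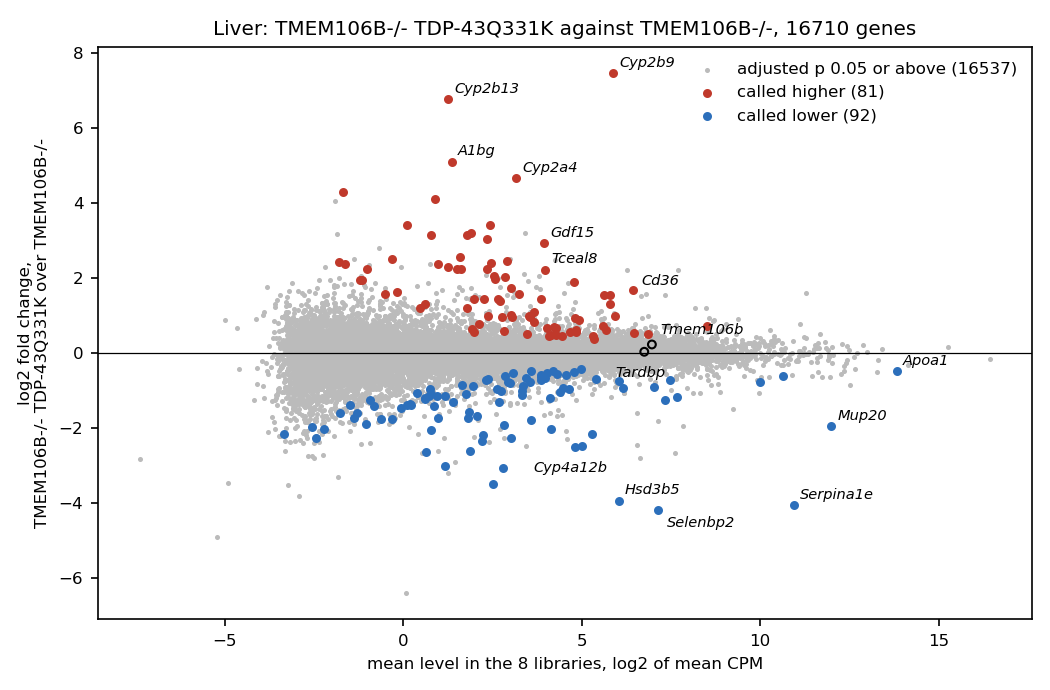
Each point is a tested liver gene, with its mean level over the 8 libraries on the x axis (log2 of mean CPM) and the log2 fold change of TMEM106B-/-TDP-43Q331K over TMEM106B-/- on the y axis. Red points are the 81 genes called higher, blue points the 92 called lower and grey points the rest; open circles mark Tmem106b and Tardbp, which lie near 0.

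Genes that are normally higher in male liver fell in part in the combined genotype. Of 26 male-biased genes, all of them tested, 9 fell and none rose, against 0.551% of all genes called lower. The median log2 fold change was -1.11, and 23 of the 26 values were below 0. Over all genes 47.7% of values were above 0. This list and the others below were chosen with earlier results of these data known, so such shares are not an independent test. The summed level of the list was 10700 to 14100 CPM in combined livers and 18800 to 27000 CPM in TMEM106B-/- livers. As everywhere in bulk tissue, fewer cells of a type and less RNA per cell cannot be told apart here. Ghr, the growth hormone receptor, was at 373 ± 16.3 CPM in combined livers and 348 ± 69.9 CPM in TMEM106B-/- livers (SD, n = 4 each).

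Hsd3b5 (ENSMUSG00000038092, GRCm38 chromosome 3, 98618634 to 98630252, minus strand), a hepatic steroid reductase of male mice, had the smallest p of all genes. Its level was 4.76, 11.2, 7.63 and 8.82 CPM in the combined livers, against 141, 93.9, 156 and 104 CPM in TMEM106B-/- livers. The highest combined liver stood far below the lowest TMEM106B-/- liver, a 15.2-fold lower level (log2 fold change -3.93 ± 0.25, edgeR adjusted p = 5.06e-07). Mup20 (chromosome 4, 62050234 to 62054158, minus strand) encodes darcin, the major urinary protein that works as a male pheromone. It was at 1263, 2019, 1727 and 1702 CPM in combined livers, against 5374, 5123, 8269 and 7176 CPM in TMEM106B-/- livers, 3.87-fold lower (-1.95 ± 0.17, edgeR adjusted p = 1.55e-05). Cyp4a12b, a fatty acid hydroxylase of male liver, was at 3.66, 5.81, 12.4 and 11.5 CPM in combined livers, against 42.8, 49.9, 48.9 and 48.3 CPM in TMEM106B-/- livers, 5.69-fold lower (-2.51 ± 0.30, edgeR adjusted p = 0.000698). All 3 genes passed in each of the 15 alternative analyses. Cyp4a12a, the near-identical copy of Cyp4a12b in the same list, was not called (0.11, edgeR adjusted p = 0.912).

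Serpina1e (chromosome 12, 103946931 to 103958975, minus strand), a secreted serine protease inhibitor of the alpha-1-antitrypsin family, was 16.6-fold lower. Its levels were 163, 123, 134 and 470.0 CPM in combined livers, against 1208, 2100.5, 4599 and 6864 CPM in TMEM106B-/- livers (-4.05 ± 0.60, edgeR adjusted p = 0.00502). The groups did not overlap, though each was spread widely. The complement component C6 was at 85.7, 72.6, 114 and 109 CPM in combined livers, against 173, 152, 249 and 339 CPM in TMEM106B-/- livers (-1.26 ± 0.22, edgeR adjusted p = 0.0084). Serpina1e and C6 lost the call when only the 8 compared libraries were fitted (adjusted p = 0.0644 and 0.0728). Selenbp2, a selenium-binding protein of liver, was at 12.9, 8.12, 11.5 and 27.2 CPM in combined livers, against 101, 84.8, 233 and 659 CPM in TMEM106B-/- livers (-4.18 ± 0.78, edgeR adjusted p = 0.0226). Its call was lost without combined replicate 1, 2 or 3 (adjusted p = 0.07, 0.0949 and 0.0856).

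The other 3 male-biased genes that fell were less secure. Slco1a1, which takes up bile acids and steroid conjugates, was at 58.5, 172, 129 and 142 CPM in combined livers, against 309.6, 253, 287 and 272 CPM in TMEM106B-/- livers (-1.16 ± 0.26, edgeR adjusted p = 0.047). Cyp7b1, an oxysterol hydroxylase of the acidic bile acid pathway, was at 83.7, 72.7, 102 and 101 CPM in combined livers, against 149.9, 109, 159 and 258 CPM in TMEM106B-/- livers (-0.91 ± 0.21, edgeR adjusted p = 0.0429). Slco1a1 passed in 4 and Cyp7b1 in 5 of the 15 alternatives. Slco1a1 lost its call without any single library of the 8 except combined replicate 2 (adjusted p from 0.0501 to 0.121), and Cyp7b1 without any except TMEM106B-/- replicate 2 (0.0626 to 0.153). The glucuronosyltransferase Ugt2b38, named here after its values were seen, was at 0.667, 0.482, 1.09 and 1.54 CPM in combined livers, against 5.93, 1.9, 8.68 and 25.6 CPM in TMEM106B-/- livers (-3.49 ± 0.70, edgeR adjusted p = 0.0298). Its call was lost without TMEM106B-/- replicate 4 (adjusted p = 0.0545) or without any of the 4 combined libraries (0.0561 to 0.123). Without the 3 livers that an earlier analysis of these data named as high in acute phase transcripts, 5 of the 26 male-biased genes were called lower.

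Of the other major urinary protein genes Mup14 and Mup11 fell, while Mup1, Mup3, Mup7 and Mup12 of the male-biased list did not pass. Mup14, outside the list, was at 13.6, 10.6, 8.61 and 25.3 CPM in combined livers, against 72.1, 62.7, 82 and 40.6 CPM in TMEM106B-/- livers (-2.15 ± 0.28, edgeR adjusted p = 0.00136). Mup11, named after its values were seen, was 5.57-fold lower (-2.48 ± 0.39, edgeR adjusted p = 0.00553). Fitted on the 8 compared libraries alone, Mup14 had an adjusted p of 0.0513 and Mup11 of 0.0718. The major urinary protein genes are near-identical copies, as are the members of the Serpina1, Cyp2b, Cyp4a12 and Gsta families, and the counting could have split their reads, so the assignment to 1 member is uncertain.

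Genes that are normally higher in female liver rose in part in the combined genotype. Of 32 female-biased genes 26 passed the filter on low counts, and 6 of the 26 were called higher and none lower, against 0.485% of all genes called higher, with 18 of 26 values above 0 and a median of 1.31. The summed level of the list was 1120, 912, 1370 and 1140 CPM in combined livers, against 633, 1120, 272 and 239 CPM in TMEM106B-/- livers. The sums overlapped, since TMEM106B-/- replicate 2 lay above combined replicate 2. The filter was run over all 4 liver genotypes, and a gene high in any of them meets it. These 26 are therefore not the whole list. Cyp2b13, among those called higher, averaged 4.76 CPM in combined livers. It averaged 0.0506 CPM in TMEM106B-/-, 0.0697 CPM in TDP-43Q331K and 0.0808 CPM in WT livers. A gene tested because of the combined livers alone can only be counted as higher. How far this raises the share of 6 in 26 was not tested, and the 0.485% rests on the same filter. The 6 left out, Cyp3a41a, Cyp3a41b, Cyp3a44, Cyp3a16, Sult2a1 and Sult2a2, held at most 19 counts in any of the 8 libraries. Without the 3 livers high in acute phase transcripts, 5 were called higher. Over the same list the TDP-43Q331K livers had a median log2 fold change of -0.0586 against WT.

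Cyp2b9 (ENSMUSG00000040660, GRCm38 chromosome 7, 26173411 to 26210661, plus strand), a cytochrome P450 of female liver, showed the largest fold change of the 173 called genes. It was at 80.1, 153, 90.8 and 148 CPM in combined livers, against 1.79, 0.748, 0.234 and 0.0926 CPM in TMEM106B-/- livers. These values are 5165, 10152, 5820 and 8581 counts in the combined libraries, and 85, 46, 15 and 7 counts in the TMEM106B-/- libraries. The log2 fold change was 7.46 ± 0.84 (edgeR adjusted p = 0.000929). Its neighbour Cyp2b13 (chromosome 7, 26061497 to 26096197, plus strand), a close copy, was at 4.91, 4.86, 1.25 and 8.03 CPM in combined livers, against 0.189, 0, 0 and 0.0132 CPM in TMEM106B-/- livers. The TMEM106B-/- libraries held 9, 0, 0 and 1 counts of it, and the combined libraries 317, 323, 80 and 465. The log2 fold change was 6.76 ± 0.88 (edgeR adjusted p = 0.00132), and it rests on the few counts of the TMEM106B-/- livers. Both genes passed in all 15 alternatives.

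The promoters of these 2 genes are shown because the pair rose together and the sequences are close to identical. They are 300 bases of RefSeq on GRCm38.p6, 250 before and 50 after the annotated start, both on the plus strand. The first covers chr7:26173159-26173458 and the second chr7:26061245-26061544, written 5′ to 3′ with capitals at the bases that differ.
Cyp2b9: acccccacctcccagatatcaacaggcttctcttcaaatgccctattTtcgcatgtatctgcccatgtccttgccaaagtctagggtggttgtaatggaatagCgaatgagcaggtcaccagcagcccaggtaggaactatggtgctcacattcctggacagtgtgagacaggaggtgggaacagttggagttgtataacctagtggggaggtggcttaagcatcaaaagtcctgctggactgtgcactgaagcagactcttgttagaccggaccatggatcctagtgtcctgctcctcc
Cyp2b13: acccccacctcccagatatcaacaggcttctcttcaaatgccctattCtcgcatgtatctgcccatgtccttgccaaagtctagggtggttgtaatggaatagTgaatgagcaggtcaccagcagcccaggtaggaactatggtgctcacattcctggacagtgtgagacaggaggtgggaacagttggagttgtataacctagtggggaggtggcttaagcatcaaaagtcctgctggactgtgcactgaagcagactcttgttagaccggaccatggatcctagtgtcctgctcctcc
Of the 300 bases 298 were the same (99.3%). Counted from 1 at the 5′ end, with the base of Cyp2b9 first, the differences were T48C and C104T. Reads of the transcripts of such close copies may have been assigned to either gene.

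Cyp2a4, a steroid hydroxylase of female liver on the same chromosome (26307169 to 26315088, plus strand), was at 7.69, 39, 15.5 and 7.18 CPM in combined livers, against 0.694, 1.71, 0.312 and 0.0794 CPM in TMEM106B-/- livers (4.65 ± 0.80, edgeR adjusted p = 0.0127). Combined replicate 2 was the highest, and each combined liver exceeded all TMEM106B-/- livers. Hao2, a peroxisomal hydroxy acid oxidase, was at 4.12, 8.28, 9.58 and 5.16 CPM in combined livers, against 1.37, 0.634, 0.919 and 0.0926 CPM in TMEM106B-/- livers (3.20 ± 0.59, edgeR adjusted p = 0.0157). In the fit of the 8 compared libraries Cyp2a4 had an adjusted p of 0.0908 and Hao2 of 0.0718, and Hao2 also lost its call without TMEM106B-/- replicate 2 (0.0556). A1bg, a plasma glycoprotein, was at 17.5, 0.949, 1.09 and 0.483 CPM in combined livers, against 0.0631, 0.277, 0.125 and 0.106 CPM in TMEM106B-/- livers (5.10 ± 1.12, edgeR adjusted p = 0.047). Its level rests mostly on combined replicate 1, without which the adjusted p was 0.0708, and it also lost the call without any single TMEM106B-/- library (0.102 to 0.136).

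A pair of organic anion transporter genes on chromosome 19 rose as well. Slc22a27 (7864388 to 7966027, minus strand), a female-biased gene, was at 11.3, 17.1, 13.2 and 9.49 CPM in combined livers, against 2.71, 3.11, 2.21 and 1.35 CPM in TMEM106B-/- livers, 5.47-fold higher (2.45 ± 0.29, edgeR adjusted p = 0.00033). Slc22a29 (8160165 to 8218900, minus strand) was at 3.69, 6.05, 5.76 and 4.95 CPM in combined livers, against 1.68, 1.19, 1.11 and 0.397 CPM in TMEM106B-/- livers (2.24 ± 0.30, edgeR adjusted p = 0.00114). Both passed in all 15 alternatives.

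**Figure D2:**
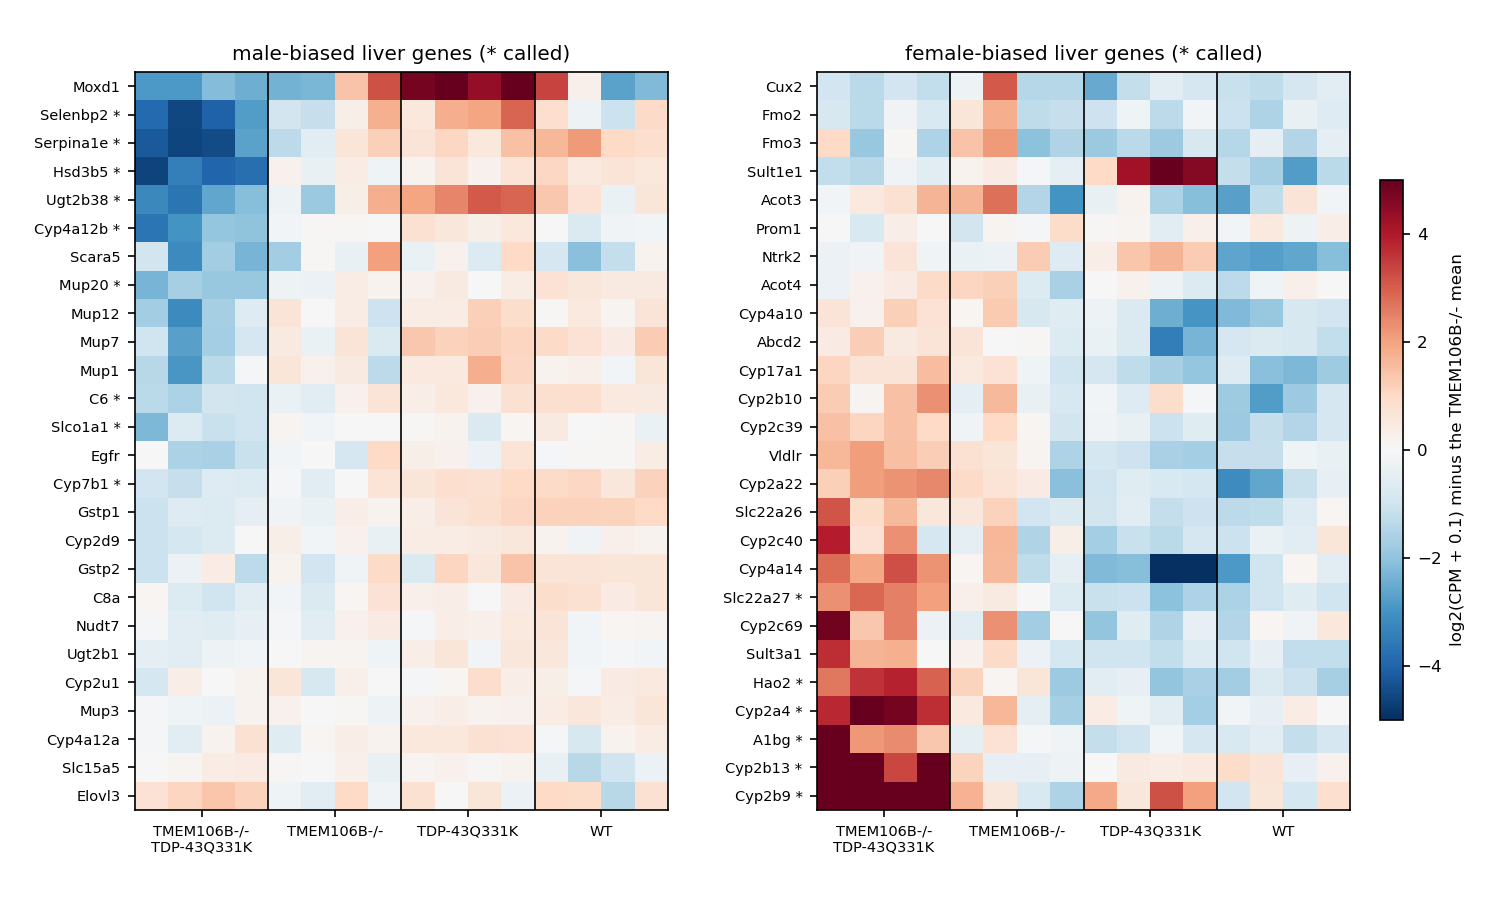
Rows are the 26 tested male-biased genes (left) and the 26 tested female-biased genes (right), columns the 16 liver libraries by genotype, and colour is log2(CPM + 0.1) minus the TMEM106B-/- mean, limited to 5 in size; a star marks a called gene. The combined livers form a blue block at the top of the left panel and a red block at the foot of the right panel, and TDP-43Q331K and WT livers do not share these blocks.

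None of the 24 genes tested from the growth hormone and STAT5 pathway was called. The list had a median of -0.209 and ranged from -2.62 to 1.86, with 9 values above 0 and 15 below. Under an unadjusted p of 0.05 lay 2 members upward and 7 downward. Over all genes these shares were 6.34% and 7.16%. Members named after their values were seen were Stat5b (0.17), Socs2 (-1.66), Cish (-2.09) and Cux2 (-2.62). Their edgeR adjusted p were 0.568, 0.265, 0.197 and 0.214. Jak2, the kinase bound to the growth hormone receptor, was at 11.9 ± 0.924 CPM in combined livers and 12.2 ± 0.459 CPM in TMEM106B-/- livers (-0.04 ± 0.11, edgeR adjusted p = 0.929). Stat5a, a STAT that the receptor activates, was at 15 ± 1.17 CPM in combined livers and 10.9 ± 1.71 CPM in TMEM106B-/- livers (0.47 ± 0.19, edgeR adjusted p = 0.273; SD, n = 4 each).

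Fatty acid uptake and triglyceride storage held 4 genes that rose. Of 36 lipid droplet and triglyceride genes 35 were tested, 4 were called higher and none lower, against 0.485% of all genes called higher, 29 values were above 0 and the median was 0.374. The list summed to 8920 to 14100 CPM in combined livers and 7390 to 7750 CPM in TMEM106B-/- livers. Gpat3 (chromosome 5, 100845713 to 100899102, plus strand), which adds the first fatty acid to glycerol-3-phosphate, was at 6.08, 12, 10.9 and 8.16 CPM in combined livers, against 1.49, 1.55, 1.88 and 2.05 CPM in TMEM106B-/- livers, 5.30-fold higher (2.41 ± 0.25, edgeR adjusted p = 7.01e-05). Cd36 (chromosome 5, 17781690 to 17888801, minus strand), a fatty acid receptor and transporter, was at 120.2, 159, 121 and 129 CPM in combined livers, against 44.1, 47.7, 44.7 and 27.6 CPM in TMEM106B-/- livers, 3.23-fold higher (1.69 ± 0.18, edgeR adjusted p = 0.000136). For Cd36 the gap between the genotypes was wider than the range within either, while the combined livers of Gpat3 ranged more widely than its gap, and neither gene overlapped between genotypes.

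Mogat1, an acyltransferase that makes diacylglycerol, was at 6.68, 10.2, 8.8 and 11.9 CPM in combined livers, against 2.31, 1.81, 3.77 and 1.15 CPM in TMEM106B-/- livers (2.06 ± 0.32, edgeR adjusted p = 0.00427). Pparg, the nuclear receptor that drives fat storage genes, was at 16.6, 18.6, 12.1 and 15 CPM in combined livers, against 9.13, 6.23, 8.88 and 8.11 CPM in TMEM106B-/- livers (0.95 ± 0.21, edgeR adjusted p = 0.0376). Gpat3, Cd36 and Mogat1 passed in all 15 alternatives. Pparg passed in 7 of 15, and was lost without any single library except combined replicate 3 (adjusted p from 0.055 to 0.133). Without the 3 livers high in acute phase transcripts 6 list members were called higher: Gpat3, Cd36, Mogat1, Cidec, Fabp4 and Apoa4. The droplet proteins Cidec, Cidea and Plin2 were named after their values were seen, and none of them passed with all livers. Cidec was at 9.38, 42.5, 27.1 and 49.9 CPM in combined livers, against 3.11, 2.72, 7.96 and 9.02 CPM in TMEM106B-/- livers (2.49 ± 0.56, edgeR adjusted p = 0.0521), and had an adjusted p of 0.0186 without combined replicate 1. Cidea was at 10.6, 27.7, 11.4 and 27.9 CPM in combined livers, against 0.862, 0.618, 6.53 and 0.357 CPM in TMEM106B-/- livers (3.21 ± 0.91, edgeR adjusted p = 0.126), and had an adjusted p of 0.0134 without TMEM106B-/- replicate 3. Plin2, the main droplet coat protein of hepatocytes, was at 672 ± 102 CPM in combined livers and 389.9 ± 145 CPM in TMEM106B-/- livers (0.79 ± 0.25, edgeR adjusted p = 0.149).

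Adipose tissue also expresses several of these genes, so its markers were counted. Of 11 adipocyte markers 6 were tested and none was called, with a median of 0.601. Of the 6, 3 were under an unadjusted p of 0.05 upward and none downward, and 2 did not overlap between genotypes, both higher in combined livers. Over all genes 6.34% were under that p upward and 7.16% downward, and 4.51% were separated upward. Without the 3 livers high in acute phase transcripts 2 of them were called higher, Cidec (3.11, edgeR adjusted p = 0.0305) and Fabp4 (0.795, edgeR adjusted p = 0.0389), which are named after their values were seen and are also members of the lipid droplet list. The list summed to 1640 to 4030 CPM in combined livers and 2080 to 3470 CPM in TMEM106B-/- livers. Adipoq, the adipocyte hormone adiponectin, had 1, 5, 33 and 1 counts in the combined libraries, against 1, 0, 1 and 1 in the TMEM106B-/- libraries. The coat protein Plin1 had 1, 3, 29 and 0 counts in the combined libraries, against 0, 4, 1 and 3 in the TMEM106B-/- libraries. Leptin (Lep) had 0, 1, 6 and 0 counts in the combined libraries, and none in any TMEM106B-/- library. Combined replicate 3 was the highest for all 3, while the other combined libraries held at most 5 counts of each. The part of adipose RNA in the values of the lipid genes was not tested.

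**Figure D3:**
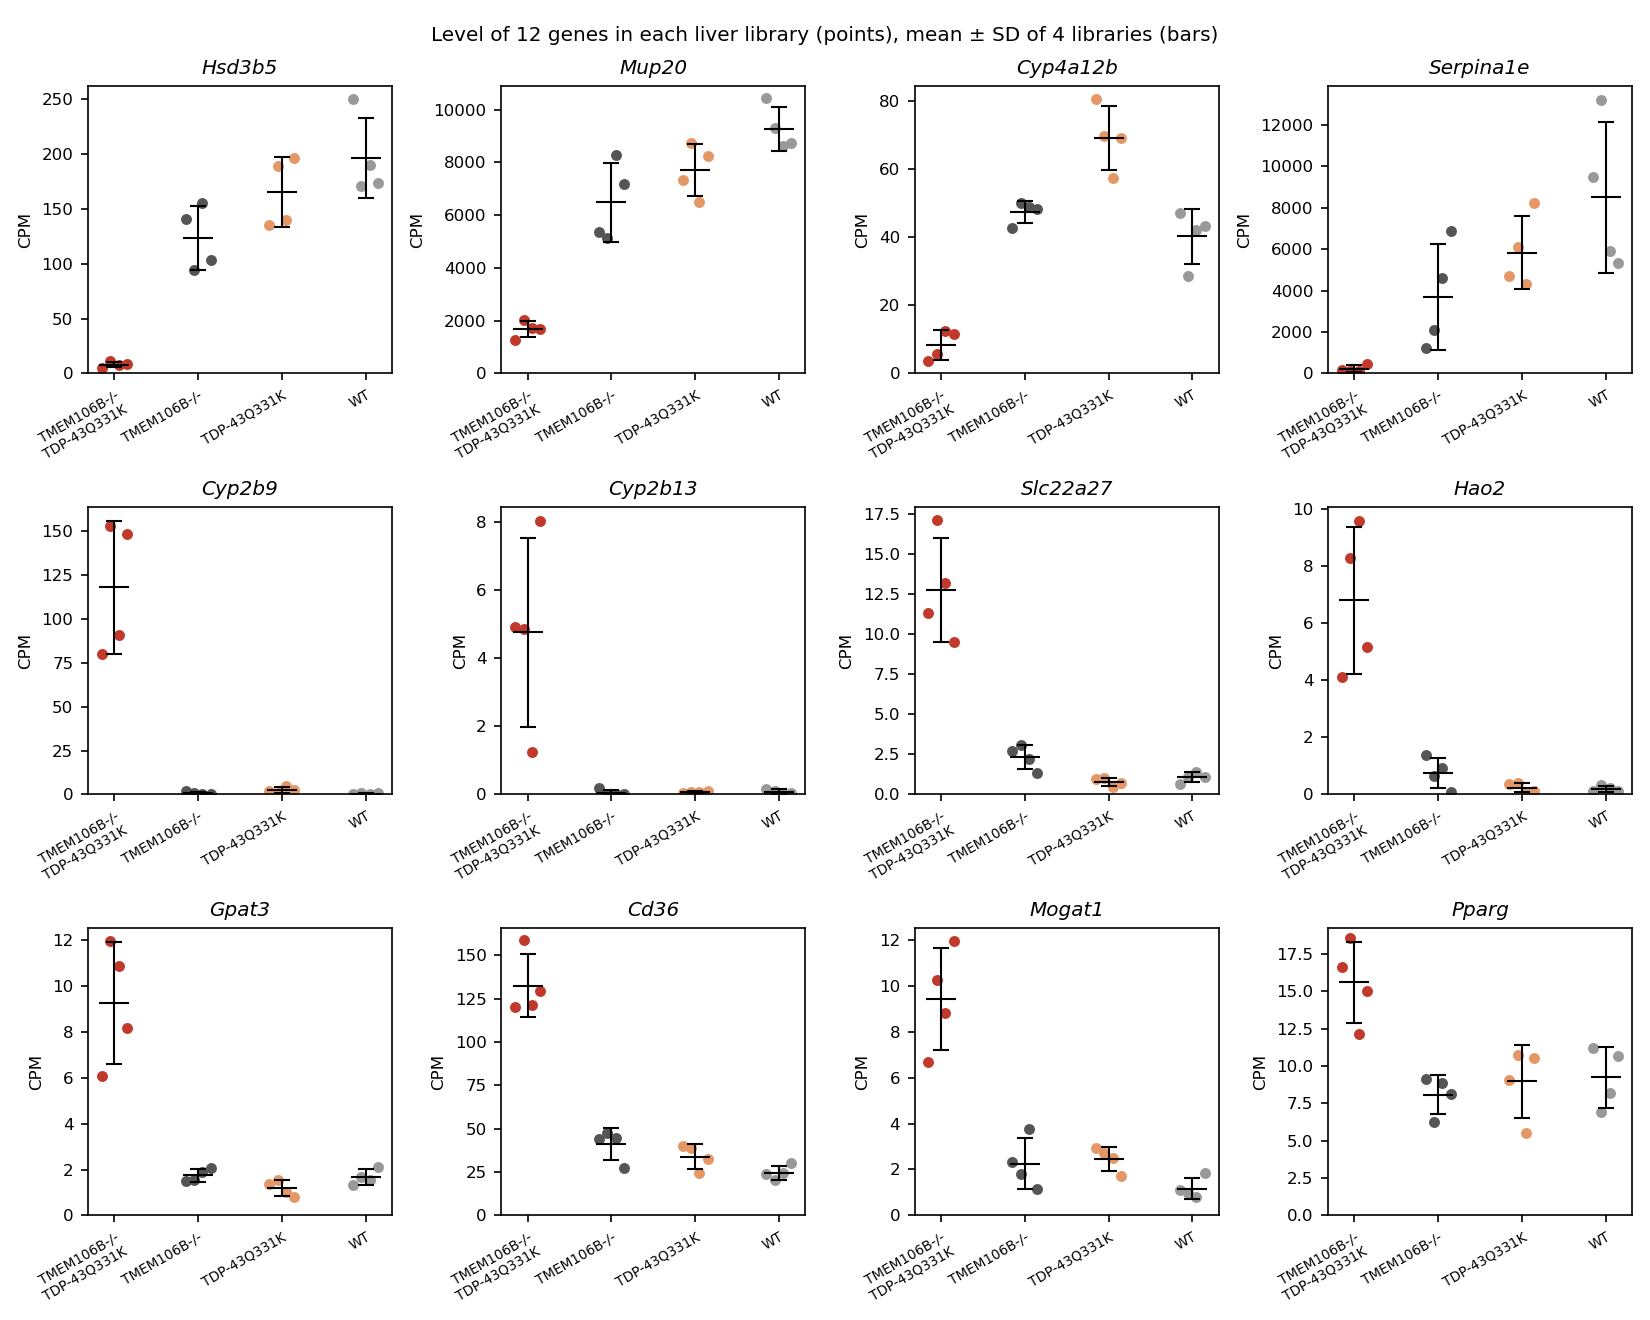
Points are the CPM of 12 genes in each liver library, by genotype from TMEM106B-/-TDP-43Q331K to WT, and bars are the mean ± SD of 4 libraries; each panel has its own axis from 0. In the upper row (male-biased genes) the combined livers are lowest, in the middle row (female-biased) and the lower row (lipid storage) they are highest, with Hsd3b5 at 8.1 ± 2.67 CPM against 124 ± 29.5 CPM in TMEM106B-/- livers.

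Of 33 fatty acid oxidation genes and PPAR-alpha targets 2 rose and none fell, against 0.485% of all genes called higher, 30 values were above 0 and the median was 0.263. Under an unadjusted p of 0.05 lay 15 of the 33 upward and none downward, against 6.34% and 7.16% of all genes. Without the 3 livers high in acute phase transcripts 1 was called, Vnn1. In 12 of the 33 the combined livers were all above the TMEM106B-/- livers, against 4.51% of all genes. Vnn1, the pantetheinase and PPAR-alpha target, was at 55.5, 90.6, 67 and 81.3 CPM in combined livers, against 31.4, 20.2, 29.1 and 19.8 CPM in TMEM106B-/- livers (1.55 ± 0.27, edgeR adjusted p = 0.00999, called in all 15 alternatives). Pdk4, the kinase that shuts off pyruvate dehydrogenase in fasting, was at 5.24, 11.6, 7.75 and 3.31 CPM in combined livers, against 2.27, 2.08, 3.54 and 2.39 CPM in TMEM106B-/- livers (1.44 ± 0.31, edgeR adjusted p = 0.0326). The libraries overlapped, and Pdk4 lost its call without TMEM106B-/- replicate 1, 2 or 4 or combined replicate 2 or 3 (adjusted p from 0.0804 to 0.133). Fgf21, a hepatic hormone of fasting named after its values were seen, was at 8.48, 36.8, 13.4 and 9.06 CPM in combined livers, against 4.79, 2.11, 3.83 and 4.89 CPM in TMEM106B-/- livers (2.11 ± 0.56, edgeR adjusted p = 0.106).

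A pair of acyl-CoA enzymes outside the lists, named after their values were seen, also rose. Crat, carnitine acetyltransferase, was at 63.9, 81.4, 98.8 and 82.1 CPM in combined livers, against 46.5, 31.9, 46.8 and 39.7 CPM in TMEM106B-/- livers (0.98 ± 0.20, edgeR adjusted p = 0.0225). Acnat2, of the acyl-CoA amino acid N-acyltransferase family, was at 85.7, 80, 80.2 and 67.8 CPM in combined livers, against 21.3, 32.8, 37.6 and 35.1 CPM in TMEM106B-/- livers (1.31 ± 0.26, edgeR adjusted p = 0.0231). Crat was lost without TMEM106B-/- replicate 2 or 4 or combined replicate 2, 3 or 4 (adjusted p from 0.0505 to 0.0808). Acnat2 was lost without TMEM106B-/- replicate 1 or 2 or combined replicate 1, 2 or 3 (0.0548 to 0.0724).

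Synthesis of lipids was not called as changed. None of 23 fatty acid synthesis genes and none of 25 cholesterol synthesis and uptake genes passed, with medians of 0.19 and 0.0138. Acly, which makes cytosolic acetyl-CoA, was at 329, 743, 504 and 264 CPM in combined livers, against 356, 298, 419 and 283 CPM in TMEM106B-/- livers, and the groups overlapped (0.44 ± 0.28, edgeR adjusted p = 0.523). The acetyl-CoA carboxylases Acaca (0.19 ± 0.19) and Acacb (0.16 ± 0.38) had edgeR adjusted p of 0.726 and 0.908.

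Of 19 NRF2 targets tested, which are genes of detoxification and antioxidant defence, 2 rose and none fell (median 0.363), against 0.485% of all genes called higher. Of the 19 values 16 were above 0, and 8 were under an unadjusted p of 0.05 upward and none downward, against 6.34% and 7.16% of all genes. Without the 3 livers high in acute phase transcripts 3 were called higher, with Srxn1, named after its values were seen, added (0.79, edgeR adjusted p = 0.0283). Gsta1, a glutathione transferase that is also in the list of CAR and PXR targets, was at 2.15, 4.85, 10.3 and 3.38 CPM in combined livers, against 1.16, 0.602, 1.12 and 0.661 CPM in TMEM106B-/- livers (2.55 ± 0.50, edgeR adjusted p = 0.0203). Ephx1, microsomal epoxide hydrolase, was at 332, 415, 604 and 473 CPM in combined livers, against 267, 284, 330.0 and 228 CPM in TMEM106B-/- livers (0.72 ± 0.16, edgeR adjusted p = 0.0376). Gsta1 was lost without TMEM106B-/- replicate 2 or 4 or combined replicate 3 (adjusted p = 0.0679, 0.0635 and 0.0526), and Ephx1 without TMEM106B-/- replicate 1, 2 or 4 or combined replicate 2, 3 or 4 (0.0671 to 0.126). Of 21 CAR and PXR targets 1 rose (Gsta1) and 1 fell: the carboxylesterase Ces2a was at 134 ± 23.9 CPM in combined livers and 219 ± 31.2 CPM in TMEM106B-/- livers (SD, n = 4 each; -0.71 ± 0.15, edgeR adjusted p = 0.0267). Ces2a was lost without TMEM106B-/- replicate 1, 2 or 3 or combined replicate 1, 2 or 4 (0.0535 to 0.0963).

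Of 21 ATF4 response genes only Gdf15 rose, and none fell, against 0.485% of all genes called higher. Gdf15, a hormone that cells secrete under stress, was at 18, 53.8, 29.5 and 7.63 CPM in combined livers, against 2.8, 1.53, 5.06 and 4.84 CPM in TMEM106B-/- livers (2.93 ± 0.53, edgeR adjusted p = 0.0161). It lost its call without TMEM106B-/- replicate 1 (adjusted p = 0.0605), in the fit of the 8 compared libraries (0.113), with the replicate block (0.0623) and without the livers high in acute phase transcripts (0.0517). Of 31 proteasome subunits Psmb5, a catalytic subunit, was the 1 called. It was at 35, 32.2, 35.5 and 36.2 CPM in combined livers, against 31.6, 20.9, 19.2 and 18.5 CPM in TMEM106B-/- livers (0.62 ± 0.14, edgeR adjusted p = 0.0431). That call was lost without any single library except TMEM106B-/- replicate 1 (0.0822 to 0.122). None of the endoplasmic reticulum stress (21), HSF1 chaperone (19) or interferon-stimulated (28) genes passed.

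Of 22 galectins, annexins and tetraspanins 2 rose and none fell (median 0.289), against 0.485% of all genes called higher. Lgals1, galectin 1, a secreted sugar-binding protein, was at 58.9, 89.5, 86.1 and 94.8 CPM in combined livers, against 27.1, 22, 40.8 and 23.3 CPM in TMEM106B-/- livers (1.54 ± 0.21, edgeR adjusted p = 0.00136, called in all 15 alternatives). S100a11, a calcium-binding partner of annexins, was at 7.35, 10.2, 8.25 and 10 CPM in combined livers, against 3.51, 3.92, 5.03 and 6.06 CPM in TMEM106B-/- livers (0.95 ± 0.18, edgeR adjusted p = 0.0141), and lost its call without TMEM106B-/- replicate 2 or combined replicate 2 (adjusted p = 0.0539 and 0.064). Stellate and endothelial cells of the liver express such genes too. None of 17 stellate cell and fibrosis markers and none of 16 endothelial markers passed, with medians of 0.23 and 0.298. Of the stellate values 13 were above 0, and 4 were under an unadjusted p of 0.05 upward and none downward. Of the endothelial values 15 were above 0, and 7 were under that p upward and none downward. Over all genes these shares were 6.34% upward and 7.16% downward. In each list 2 markers did not overlap between genotypes, all higher in combined livers, against 4.51% of all genes. The stellate list summed to 364 to 446 CPM in combined livers and 319 to 363 CPM in TMEM106B-/- livers, and the endothelial list to 284 to 358 CPM in combined livers and 245 to 298 CPM in TMEM106B-/- livers. Their part in the Lgals1 and S100a11 values was not tested.

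TMEM106B resides in lysosomes, and genes of that compartment were counted. Of 48 lysosome genes 1 fell and none rose (median 0.112), a share near the 1.04% called among all genes. Of the 48 values 35 were above 0. Under an unadjusted p of 0.05 lay 8 upward and 1 downward, against 6.34% and 7.16% of all genes. The list summed to 4840 to 5200 CPM in combined livers and 4350 to 4820 CPM in TMEM106B-/- livers. Of 18 subunits of the lysosomal proton pump none passed (median 0.144), and 17 values were above 0. The subunits summed to 831 to 865 CPM in combined livers and 769 to 814 CPM in TMEM106B-/- livers. Sort1, the sorting receptor sortilin that carries cargo to lysosomes, was at 2.54, 3.68, 5.55 and 3 CPM in combined livers, against 9.4, 5.48, 13.1 and 8.45 CPM in TMEM106B-/- livers (-1.30 ± 0.27, edgeR adjusted p = 0.0291). The libraries overlapped at combined replicate 3 and TMEM106B-/- replicate 2. The call was lost without TMEM106B-/- replicate 1 or 3 or combined replicate 1, 2 or 4 (adjusted p from 0.0699 to 0.0968). Sort1 was also the 1 call among 21 genes of amyotrophic lateral sclerosis, frontotemporal dementia and TDP-43 related splicing.

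A few abundant secreted proteins of hepatocytes fell. Of 12 hepatocyte markers tested 2 fell and none rose (median -0.176), against 0.551% of all genes called lower. Apoa1, the main protein of high-density lipoprotein, was at 12093 ± 333 CPM in combined livers and 16947 ± 1815 CPM in TMEM106B-/- livers (-0.49 ± 0.11, edgeR adjusted p = 0.0429). Serpina1a was at 1257 ± 243 CPM in combined livers and 1934 ± 184 CPM in TMEM106B-/- livers (-0.62 ± 0.14, edgeR adjusted p = 0.047). The plasma protease inhibitor Mug1, outside the list, was at 758 ± 129 CPM in combined livers and 1285 ± 123 CPM in TMEM106B-/- livers (-0.76 ± 0.17, edgeR adjusted p = 0.0445; SD, n = 4 each). Apoa1 and Serpina1a passed in 4 and Mug1 in 5 of the 15 alternatives. Apoa1 and Mug1 lost their calls without any single library except TMEM106B-/- replicate 4, and Serpina1a without any except combined replicate 4 (adjusted p from 0.0539 to 0.151 over these).

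Most other lists held no call, with the median log2 fold change given for each of the larger ones. All 58 cytosolic ribosomal protein genes had values below 0 (median -0.188) and none passed. The 38 nuclear and 11 mitochondrial respiratory chain genes had medians of 0.0321 and -0.274. The acute phase (-0.157), gluconeogenesis (0.0778), cell cycle (0.365), phase II conjugation (0.169), pericentral (-0.0434) and periportal (-0.168) lists had none. Of 22 clock genes (median -0.247) 1 was called, and it fell. Under an unadjusted p of 0.05 lay 3 clock genes upward and 5 downward, against 6.34% and 7.16% of all genes. The libraries of the genotypes did not overlap for 1 clock gene upward and 3 downward, against 4.51% and 4.48% of all genes. The called gene, the repressor Bhlhe41, was at 1.95, 2.03, 2.28 and 1.81 CPM in combined livers, against 5.11, 6.6, 8.07 and 5.99 CPM in TMEM106B-/- livers (-1.67 ± 0.35, edgeR adjusted p = 0.0298). Bhlhe41 was lost without any single library except TMEM106B-/- replicate 1 (adjusted p from 0.052 to 0.101). Bile acid synthesis and transport had 2 of 28 called, the male-biased Cyp7b1 and Slco1a1 described above. Without the 3 livers high in acute phase transcripts neither of them passed (edgeR adjusted p = 0.144 and 0.0687). In that fit Abcg5 (-0.701, edgeR adjusted p = 0.0197) and Abcg8 (-0.721, edgeR adjusted p = 0.0305), named after their values were seen, were called lower. The 1 organic ion transporter called of 14 was Slc22a29. Over all genes 0.485% were called higher and 0.551% lower.

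Among markers of the remaining cells and tissues 1 gene was called, with the number tested given for each list. Over all genes 1.04% were called. Adipocyte, stellate and endothelial markers are described above. None of 19 Kupffer cell and macrophage (median 0.213), 11 bile duct (-0.364), 18 lymphocyte (-0.132), 9 neutrophil and monocyte (-0.37), 6 red blood cell (0.398) or 1 skeletal muscle marker (0.413) passed. Of 5 pancreas and gut markers tested Cela1, an elastase, fell: it was at 13, 11.3, 14.6 and 15.9 CPM in combined livers, against 33.1, 26.2, 37.7 and 16.1 CPM in TMEM106B-/- livers (-1.05 ± 0.20, edgeR adjusted p = 0.0188). Cela1 was lost without TMEM106B-/- replicate 1 or combined replicate 1 or 2 (adjusted p = 0.0605, 0.0537 and 0.075).

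**Figure D4:**
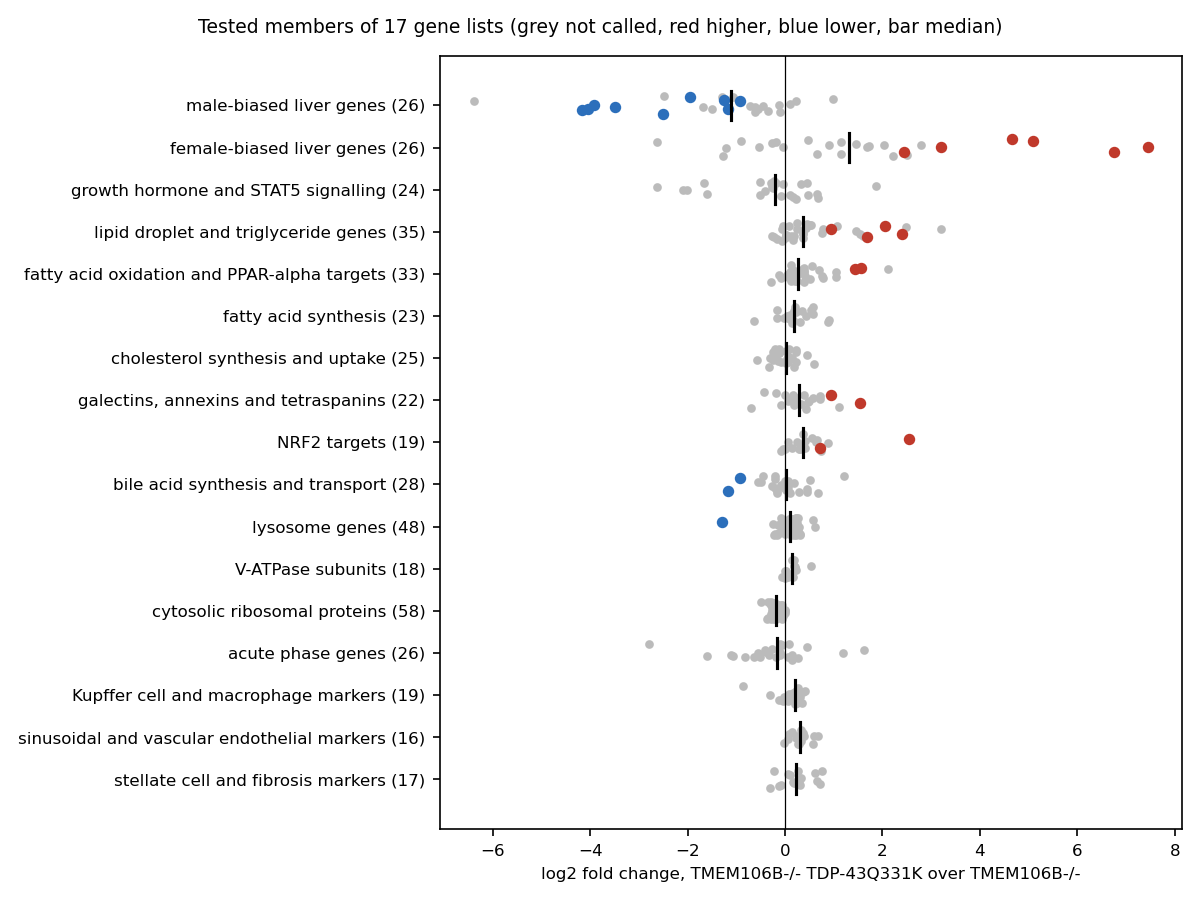
Each point is a tested member of the list named on the y axis (number tested in brackets), placed by its log2 fold change of TMEM106B-/-TDP-43Q331K over TMEM106B-/-; red members were called higher, blue lower, and the bar is the list's median. The male-biased list has its median at -1.11 and the female-biased list at 1.31, while the other 15 lists have medians between -0.209 and 0.374.

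Several genes outside the lists were among the 15 per direction with the smallest p. Tceal8, an X-linked gene related to transcription elongation factors, was at 32.4, 32.7, 13.9 and 25.4 CPM in combined livers, against 4.67, 6.9, 5.83 and 4.96 CPM in TMEM106B-/- livers (2.22 ± 0.22, edgeR adjusted p = 4.61e-05). Gprc5b, an orphan membrane receptor, was at 4.32, 15, 9.28 and 11 CPM in combined livers, against 0.547, 0.716, 1.42 and 1.03 CPM in TMEM106B-/- livers (3.40 ± 0.48, edgeR adjusted p = 0.00198). Nt5e, the CD73 enzyme that makes adenosine outside cells, was at 12.7, 10.1, 9.56 and 5.52 CPM in combined livers, against 1.39, 3.11, 2.38 and 2.76 CPM in TMEM106B-/- livers (1.97 ± 0.29, edgeR adjusted p = 0.00238). The combined livers were above all TMEM106B-/- livers in each. The zinc transporter Slc39a5 (2.49 ± 0.36), the calcineurin regulator Rcan2 (1.38 ± 0.20), Fam129b (1.90 ± 0.26) and the secreted protein Wfdc2 (1.57 ± 0.22) rose as well, with edgeR adjusted p between 0.00161 and 0.00197. Fam129b and Wfdc2 lost the call when only the 8 compared libraries were fitted (adjusted p = 0.0575 and 0.0502).

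Among the genes that fell, Irf5, a transcription factor of inflammatory signalling, was at 5.15, 4.47, 4.09 and 3.88 CPM in combined livers, against 8.73, 7.86, 9.69 and 9.29 CPM in TMEM106B-/- livers (-1.01 ± 0.13, edgeR adjusted p = 0.000929). Cadm4, a cell adhesion molecule, was at 6.9, 6.48, 8.88 and 5.37 CPM in combined livers, against 20.3, 21.8, 22.8 and 47.8 CPM in TMEM106B-/- livers (-2.03 ± 0.26, edgeR adjusted p = 0.000929). Adgrf1, an adhesion G protein-coupled receptor, was at 0.496, 0.226, 0.951 and 0.293 CPM in combined livers, against 3.64, 2.29, 2.79 and 7.28 CPM in TMEM106B-/- livers (-3.02 ± 0.44, edgeR adjusted p = 0.00271). TMEM106B-/- replicate 4 was the highest library for Cadm4 and Adgrf1, and both were called without it. The calpain Capn8 (-2.19 ± 0.35) and the predicted gene Gm3839 (-2.62 ± 0.22) also fell, with edgeR adjusted p of 0.00525 and 1.21e-05, and all 5 genes passed in the 15 alternatives.

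The same knock-in was compared on the WT background, in the 4 TDP-43Q331K and 4 WT livers, which share no library with the comparison above. There 44 genes (0.263%) were called, and leaving out any 1 of these 8 libraries moved the count by over 1.5 times, to between 7 (without WT replicate 3 or TDP-43Q331K replicate 4) and 71 (without WT replicate 4). The called sets overlapped in 4 genes, 2.31% of the 173 and 9.09% of the 44. The pseudogene Gm5626 was lower on both backgrounds, by -1.57 ± 0.21 on the TMEM106B-/- and -1.67 ± 0.21 on the WT background. The transcript 5033403H07Rik was lower by -0.59 ± 0.10 on the TMEM106B-/- and -1.04 ± 0.10 on the WT background. Exoc4, a subunit of the exocyst, was higher by 0.65 ± 0.12 on each background. Gm33543 was lower on the TMEM106B-/- background (-1.02 ± 0.23) and higher on the WT background (1.37 ± 0.24). The edgeR adjusted p of these 4 was at most 0.0445 on the TMEM106B-/- background and 0.0355 on the WT background. Exoc4 lost its call on the TMEM106B-/- background without combined replicate 2 (0.0509). Gm33543 lost its call there without TMEM106B-/- replicate 1 or 2 or any 1 combined library (0.0593 to 0.149).

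Of the 173 genes, 168 differed less in size on the WT background, where the median size of their log2 change was 0.292, against 1.31 on the TMEM106B-/- background. That contrast is uneven because the genes were selected on the TMEM106B-/- background. The difference itself was tested over all genes as an interaction, which contains the same 8 libraries, so for the genes called above it is not independent of their choice. The interaction called 115 genes (0.688%), 57 upward and 58 downward. The count was 51 without combined replicate 2, 189 without TMEM106B-/- replicate 4, and 65 to 76 without any 1 TDP-43Q331K library. Hsd3b5 changed by -3.93 on the TMEM106B-/- and by -0.25 on the WT background (interaction -3.68 ± 0.33, edgeR adjusted p = 6.88e-05). Cyp2b9 changed by 7.46 on the TMEM106B-/- and by 2.27 on the WT background (interaction 5.19 ± 1.08, edgeR adjusted p = 0.0464). Gpat3 changed by 2.41 on the TMEM106B-/- and by -0.50 on the WT background (interaction 2.91 ± 0.35, edgeR adjusted p = 0.00101). Cd36 changed by 1.69 on the TMEM106B-/- and by 0.46 on the WT background (interaction 1.23 ± 0.25, edgeR adjusted p = 0.0327). For Serpina1e, Mogat1, Pparg, Vnn1 and Lgals1 the interaction was not called, with edgeR adjusted p of 0.058, 0.287, 0.122, 0.0566 and 0.0845.

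Among the male-biased genes Hsd3b5, Mup20, Cyp4a12b, Ugt2b38 and Selenbp2 were called in the interaction, each downward. Among the female-biased genes Cyp2b9, Cyp2b13 and Slc22a27 were called upward, and Sult1e1 and Ntrk2 downward. The estrogen sulfotransferase Sult1e1 and the neurotrophin receptor Ntrk2, named after their values were seen, were called higher in TDP-43Q331K than in WT livers, and were not called between combined and TMEM106B-/- livers. Sult1e1 was at 1.67, 16.2, 54.4 and 21.2 CPM in TDP-43Q331K livers, against 0.294, 0.185, 0.028 and 0.254 CPM in WT livers (6.95 ± 0.93, edgeR adjusted p = 0.0103). It averaged 0.435 ± 0.216 CPM in combined livers and 0.817 ± 0.234 CPM in TMEM106B-/- livers (SD, n = 4 each). Ntrk2 was at 7.93, 16.6, 20.5 and 15.6 CPM in TDP-43Q331K livers, against 0.934, 0.851, 0.965 and 1.37 CPM in WT livers (3.87 ± 0.45, edgeR adjusted p = 0.00216), while it averaged 6.54 ± 2.23 CPM in combined livers and 7.39 ± 5.39 CPM in TMEM106B-/- livers. The TDP-43Q331K and WT libraries did not overlap for either gene, and the calls were not followed gene by gene with single libraries left out. None of the male-biased genes was called between TDP-43Q331K and WT livers, where the list's median was 0.158. Selenbp2 was at 784 ± 481 CPM in TDP-43Q331K livers and 241 ± 137 CPM in WT livers (SD, n = 4 each), so its interaction of -5.88 ± 1.04 (edgeR adjusted p = 0.0223) combines opposite differences.

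**Figure D5:**
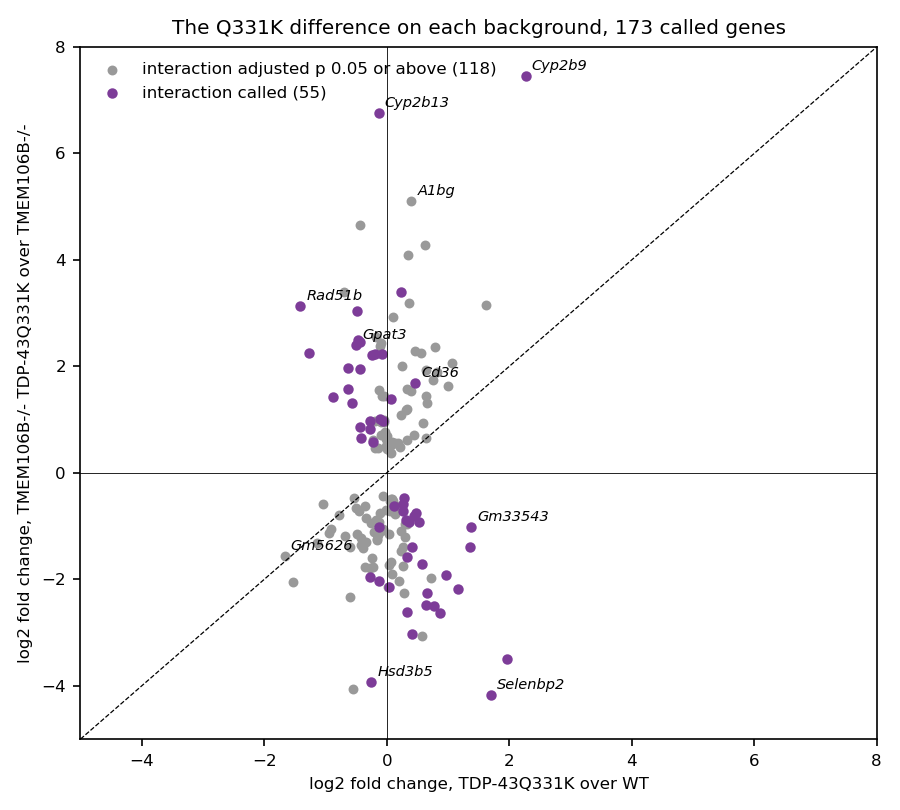
Each point is 1 of the 173 called genes, with the log2 fold change of TDP-43Q331K over WT on the x axis and of TMEM106B-/-TDP-43Q331K over TMEM106B-/- on the y axis; the dashed line marks equal change, and purple points are the 55 genes also called in the interaction, which shares its libraries with the y axis. Since the genes were chosen by the y axis, the spread along y is set by that choice; most points lie close to 0 on the x axis, with a median size of 0.292.

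In cortex the same comparison, 5 combined and 5 TMEM106B-/- libraries, called 0 of 21248 genes (0%) by edgeR, with a lowest adjusted p of 0.97 and 1053 genes under an unadjusted p of 0.05. DESeq2 and limma-voom called 0 as well. Of the 173 liver genes 116 were tested in cortex, and 9 of them were under an unadjusted p of 0.05. Gprc5b, singled out after its values were seen, was among these, with a log2 fold change of 0.18 ± 0.06 in cortex against 3.40 ± 0.48 in liver, and its adjusted p in cortex was 0.97. The difference between tissues was not tested.

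Neighbours of the targeted genes were counted to see whether calls gathered there. Within 10 Mb of Tardbp 208 genes were tested and 1 (0.481%) was called, Fam131c, which was at 6.05, 8.36, 6.69 and 6.73 CPM in combined livers, against 2.92, 2.15, 4.27 and 4.59 CPM in TMEM106B-/- livers (1.0 ± 0.21, edgeR adjusted p = 0.0295). Fam131c was lost without TMEM106B-/- replicate 1 or 2 or combined replicate 2, 3 or 4 (adjusted p from 0.0572 to 0.122). Within 10 Mb of Tmem106b 64 genes were tested and 1 (1.56%) was called, Pdk4. Each region held 1 call, against 1.04% called among all genes.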

How the data were processed

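Total RNA of liver and brain cortex was sequenced from directional libraries, per the labels' protocols. The submitters' processing notes list Trim Galore, cutadapt and FastQC, and the builds GRCm38 and mm10. Which aligner, counter and strand setting were used is not given in the sources used. The deposited values are raw counts per gene, whole numbers that the authors did not normalize. All 55536 gene identifiers matched GENCODE M21. Left out was 1 cortex column that no label names.

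The 16 livers (50.5 to 74.1 M counts) were fitted as 4 genotypes in 1 model with edgeR 4.0.16 in R 4.3.3: filterByExpr (minimum count 10, minimum total 15), TMM scaling and the robust quasi-likelihood test, two-sided, with 12 residual degrees of freedom and a common biological coefficient of variation of 0.235. P-values were adjusted by Benjamini and Hochberg over all 16710 tested genes, and genes under 0.05 were called. The 21 cortex libraries were fitted alike. CPM values were computed from the counts with TMM library sizes. Log2 fold changes carry their SE.

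The members, the 41 gene lists (930 names, 2 not in the annotation) and the alternatives were chosen with earlier results of these data known. The rule for named genes took the targeted genes, the 15 calls of lowest p in each direction, the 5 per direction with the largest CPM change, up to 6 called or else 3 members per list, interaction genes, shared calls and neighbouring genes of both targets; a part is given. The 15 alternatives were RLE size factors, no filter, DESeq2 1.42.0, limma-voom (limma 3.58.1) with quality weights, a fit of only the compared groups, the replicate number as a block, 8 single libraries left out, and 3 livers with high acute phase transcripts left out (WT replicate 2, TMEM106B-/- replicate 4 and combined replicate 1). The code was tested on simulated data. No libraries were duplicates.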

Additional observations from a re-analysis of the deposited data

Results flagged for a closer look

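For 8 genes of the report and Eda2r, 1 library of 4 lay far from the other 3, with a gap to its neighbour above Dixon's 95% critical share of the group's range, a size that chance gives in about 1 of 20 groups. Both genotypes of every gene followed through the alternatives were searched, so chance alone would give some of these gaps. In combined livers the gap was 0.884 of the range for Serpina1e (replicate 4 high), 0.964 for A1bg (replicate 1 high), 0.903 for Wfdc2 (replicate 2 high), 0.947 for Capn8 (replicate 3 high), 0.906 for Ntrk2 (replicate 3 high) and 0.918 for Eda2r (replicate 2 high). In TMEM106B-/- livers it was 0.93 for Cyp2b13 (replicate 1 high), 0.908 for Cadm4 (replicate 4 high), 0.908 for Ntrk2 (replicate 3 high) and 0.918 for Cidea (replicate 3 high).

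The effect of the Q331K change differed between the TMEM106B-/- and the WT background for a further set, by edgeR's interaction test over all genes. The interaction on the log2 scale was negative for the male-biased genes Hsd3b5 (-3.68), Mup20 (-1.68), Cyp4a12b (-3.29), Selenbp2 (-5.88) and Ugt2b38 (-5.45), and for Mup14 (-2.19) and Mup11 (-3.12). It was positive for the female-biased Cyp2b9 (5.19), Cyp2b13 (6.89) and Slc22a27 (2.88), and for the transporter Slc22a29 (2.32), and negative for Sult1e1 (-7.85) and Ntrk2 (-4.05). It was positive for the lipid genes Gpat3 (2.91), Cd36 (1.23), Crat (1.26) and Acnat2 (1.88). Among the other genes it was positive for Tceal8 (2.47), Wfdc2 (2.2), Rcan2 (1.31), Gprc5b (3.16), Nt5e (2.59) and Slc39a5 (2.97). It was negative for Irf5 (-0.893), Cadm4 (-1.9), Adgrf1 (-3.43), Capn8 (-3.34), Gm3839 (-2.95), Ces2a (-0.968) and Gm33543 (-2.39).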

How the results depend on the processing

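Against 173 genes called between combined and TMEM106B-/- livers, DESeq2 called 536, limma-voom 376 and a fit of only the compared groups 81, and leaving out single libraries gave 77 to 155. The interaction (115) became 600 with DESeq2, 320 with limma-voom and 51 to 189 with single libraries left out. TDP-43Q331K against WT (44) became 401 by DESeq2 and 341 by limma-voom, 20 in a fit of only those groups, 12 without the livers high in acute phase transcripts and 7 to 71 with single libraries left out. The replicate numbers did not pair the libraries, since the correlations of same-numbered libraries were between -0.133 and 0.01, and the numbers only name them. With the replicate block 134, 92 and 13 genes were called in these 3 comparisons, and 122 of the 173 were kept. RLE size factors gave 169 and no filter 141 calls in the first comparison. The 3 livers left out gave 150, with 88 of the 173 kept. The interaction uses all 4 genotypes, so it has no fit of only the compared groups. In cortex every alternative called 0 genes. Over all alternatives 44 of the 173 genes were called each time (27 higher, 17 lower). No named gene changed sign in an alternative where it was called there or in the main fit. Sign changes of genes called in neither were not counted. Of the named genes 32 lost the call in the fit of only the compared groups, 20 without the 3 livers, 11 with the replicate block and 10 without the filter. The cause of these differences was not tested. Depth was not varied. Genes with few counts in 1 genotype, Cyp2b13 first, have fold changes limited by those counts.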

Other observations

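Some called genes outside the lists have known roles that the text has not described, and they were chosen after their values were seen. Aph1b and Aph1c encode subunits of gamma-secretase and are close copies, so reads may be shared between them. Aph1c was at 0.357, 0.256, 0.281 and 0.345 CPM in combined livers, against 0.526, 0.976, 0.888 and 0.9 CPM in TMEM106B-/- livers (-1.41 ± 0.23, edgeR adjusted p = 0.00526). Aph1b was at 0.651, 0.723, 0.515 and 0.483 CPM in combined livers, against 1.07, 1.37, 1.71 and 2.08 CPM in TMEM106B-/- livers (-1.39 ± 0.30, edgeR adjusted p = 0.0298). Aph1c lost its call only in the fit of the compared groups (adjusted p = 0.062), while Aph1b lost it in 10 of the 15 alternatives, among them every single library left out except TMEM106B-/- replicate 1 (0.0539 to 0.101).

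Eda2r, a receptor of the tumour necrosis factor family and known p53 target, was at 1.15, 1.9, 1.15 and 1.21 CPM in combined livers, against 0.484, 0.228, 0.654 and 0.37 CPM in TMEM106B-/- livers (1.64 ± 0.31, edgeR adjusted p = 0.0162). Eda2r lost its call without combined replicate 2 (adjusted p = 0.0727), in the fit of the compared groups (0.0698) and without the livers high in acute phase transcripts (0.0573). Ccng1, cyclin G1, also a known p53 target, was at 31.8, 37, 34.8 and 32.8 CPM in combined livers, against 19.2, 21.2, 24.7 and 26.7 CPM in TMEM106B-/- livers (0.57 ± 0.13, edgeR adjusted p = 0.0481), and lost it without any single library except TMEM106B-/- replicate 4 (0.0629 to 0.161).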
